A study of Mus musculus with 12 samples.

Results

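The genes described here are 45 genes of cell division, chosen by name from textbook roles in DNA replication and mitosis. They are cyclins and their kinases, Cdc25 phosphatases, E2F transcription factors, factors of origin licensing and the replicative helicase, enzymes of nucleotide supply, mitotic kinases and checkpoint proteins, motors and centromere proteins, and the markers Mki67 and Top2a. Gene names in the scanner files, with Cdc2a read as Cdk1, gave 57 probes for 44 of them, of 39429 probes for 31896 gene names on the array. Cdc45 appeared only under its older name Cdc45l, was matched through its RefSeq accession and is given apart. The single Cdk6 probe was well above background on 3 of 12 arrays and was left out. That left 43 members tested among 24149 genes, and 41 of the 43 were represented by a probe well above background on all 12 arrays.

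Cells copy their DNA and divide in a fixed order of phases. In G1 the D-type and E-type cyclins, with their kinases, release E2F factors from the retinoblastoma protein, and E2F then switches on genes for DNA replication such as the Mcm helicase and the ribonucleotide reductase subunits. In G2 and mitosis a second gene set, with cyclin B, Cdk1, Aurora kinases and spindle proteins, is switched on through other promoter elements. Neural stem cells of the embryonic cortex divide often, and TGFb is known to slow G1 in many epithelial cell types, partly by lowering Myc and raising CDK inhibitors.

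RNA was extracted from cultures of mouse neural stem cells derived from E12.5 cerebral cortex. All cells carried a stably transfected short hairpin RNA (shRNA). The control line carried one of random sequence, and the knockdown line carried the hairpin labelled sh2 JMJD3, against the histone demethylase encoded by Kdm6b. Each line received vehicle or TGFb at 5 ng/ml for 2.5 h, which gave 4 groups of 3 samples, each hybridised to a 1-colour array. The series' design text names the vehicle, while the treatment label of those samples reads none. Whether a line is a clone or a pool is not given in the sources used here, and with 1 line per hairpin the knockdown cannot be told apart from other differences between the lines. Whether the replicates were independent cultures is not stated, and the p-values therefore reflect the scatter of these samples alone, part of which may be technical.

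Levels are given as log2 signal relative to the 75th percentile of the array, which lay between 3175 and 4462. They are compared between arrays for the same probe and never between probes. Between 70.3% and 78.4% of gene probes were well above background, lowest in knockdown vehicle replicate 3, and replicates of a group correlated at r = 0.994 to 0.998 over the genes tested. The arrays lay on 4 slides, and arrays of different groups on 1 slide deviated from their group means together in 12 of 12 pairs (r from 0.18 to 0.58 across genes). Slide 1 held vehicle arrays alone and slide 4 TGFb arrays alone, so treatment is partly tied to slide. Both treatments shared slides 2 and 3 for the control line and slide 3 alone for the knockdown line. Differences between groups are log2 differences with the standard error (SE) of a limma fit over all 12 arrays, and adjusted p is limma's, with Benjamini-Hochberg adjustment over the 24149 genes and a threshold of 0.05. Precision is limited by how many arrays there are, and the median SE of a difference between 2 groups was 0.10. In cultures measured in bulk, fewer cells in a phase and less RNA per cell cannot be told apart.

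The labels were checked first. Kdm6b stood at -0.84, -0.73 and -0.75 in control cells with vehicle and at -0.67, -0.69 and -0.59 in control cells with TGFb. In knockdown cells Kdm6b stood at -1.95, -1.90 and -1.96 with vehicle and at -2.01, -2.12 and -2.01 with TGFb. All 6 knockdown arrays lay below all 6 control arrays, with a difference of -1.16 ± 0.05 under vehicle (limma adjusted p = 1.05e-07). All 10 neural stem cell markers looked at, among them Nes, Sox2 and Fabp7, were well above background on all 12 arrays. Markers of other cells were also well above background on all 12 arrays: 8 of 10 for neurons, 7 of 8 for oligodendrocytes, 7 of 7 for astrocytes, 5 of 7 for microglia, 4 of 5 for endothelium and 5 of 8 for fibroblasts and meninges. A gene counted if any of its probes did so, and on each array 70.3% to 78.4% of all gene probes were above background. Some counted markers were faint, with mean levels down to -7.50, so these counts do not show which cells were present. Neurod6 (neurons), Aif1 (microglia) and Cdh5 (endothelium) were well above background on 0 arrays. Of the rest, Mbp was so on 11 arrays, Cx3cr1 on 9, Stmn2 on 4, Col3a1 and Pdgfrb on 2 each and Lum on 1.

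With TGFb fewer of the division genes passed, as a share, than of all genes, though in control cells the shares were close with slide as a block. With the knockdown the called members changed by small amounts and in both directions. TGFb, averaged over both lines, raised E2f2, E2f8 and Mcm6 and lowered 0 members, so that 3 of 43 passed (6.98%), where 15.7% of all genes tested did (7.18% higher and 8.52% lower). On single arrays, E2f8 alone had all TGFb arrays above all vehicle arrays of both lines, 1 of 43 members (2.33%) beside 6.18% of all genes in either direction. At an unadjusted p under 0.05, 5 members were higher and 4 lower. The share of all genes at that threshold is not given, so this count has no comparison. Within control cells 2 of 43 members passed (E2f2 and E2f8), against 10.1% of all genes, and within knockdown cells 1 did (E2f8), against 9.49%. These counts depend on the slide: with slide as a block 5 of 43 (11.6%) passed in control cells, beside 2905 of all 24149 genes, as Aurka and Mcm6 were then also higher and Cdc25a lower. In knockdown cells Mcm6 was added (2 of 43, against 7.89% of all genes), and over both lines the same 3 members passed (6.98%, against 13.1%). The members had a median TGFb difference of 0.03 in the control line and of -0.01 in the knockdown line, beside -0.01 and -0.02 over all genes.

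The knockdown, averaged over both treatments, raised 11 members and lowered 10. These 21 of 43 (48.8%) stand beside 39.7% of all genes tested (16.6% higher and 23.2% lower). When slide was a block, 25 passed (58.1%, against 48.4% of all genes). Aurka and Cdk4 were then also higher and Cdc6 and Plk1 lower. All 6 knockdown arrays lay above or below all 6 control arrays for 9 of 43 members (20.9%), against 20.3% of all genes. With vehicle 13 passed (30.2%, against 27.8% of all genes), of which 8 were higher and 5 lower. Same-numbered vehicle arrays of the 2 lines shared a slide, and with that pairing as a block, fitted on the vehicle arrays alone, 21 passed (48.8%, against 37.1% of all genes), of which 12 were higher and 9 lower. They are the 13 together with Aurka, Cdk2, E2f1 and Mki67, which were higher, and Cdt1, E2f2, Mcm4 and Plk1, which were lower. With TGFb 14 passed (32.6%, against 29.0%), of which 6 were higher and 8 lower, and 17 did with slide as a block (39.5%, against 37.0%). Over both treatments the median over the members was 0.01, beside -0.01 over all genes. The widest change that passed there was 1.47-fold, that of Ccne1. The summed signal of the 43 members, in units of the 75th percentile, ran from 460 to 474 in control cells with vehicle, 471 to 477 with TGFb, 465 to 469 in knockdown cells with vehicle and 456 to 476 with TGFb. These ranges overlap, except that the control arrays with TGFb lay above the knockdown arrays with vehicle.

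**Figure D1:**
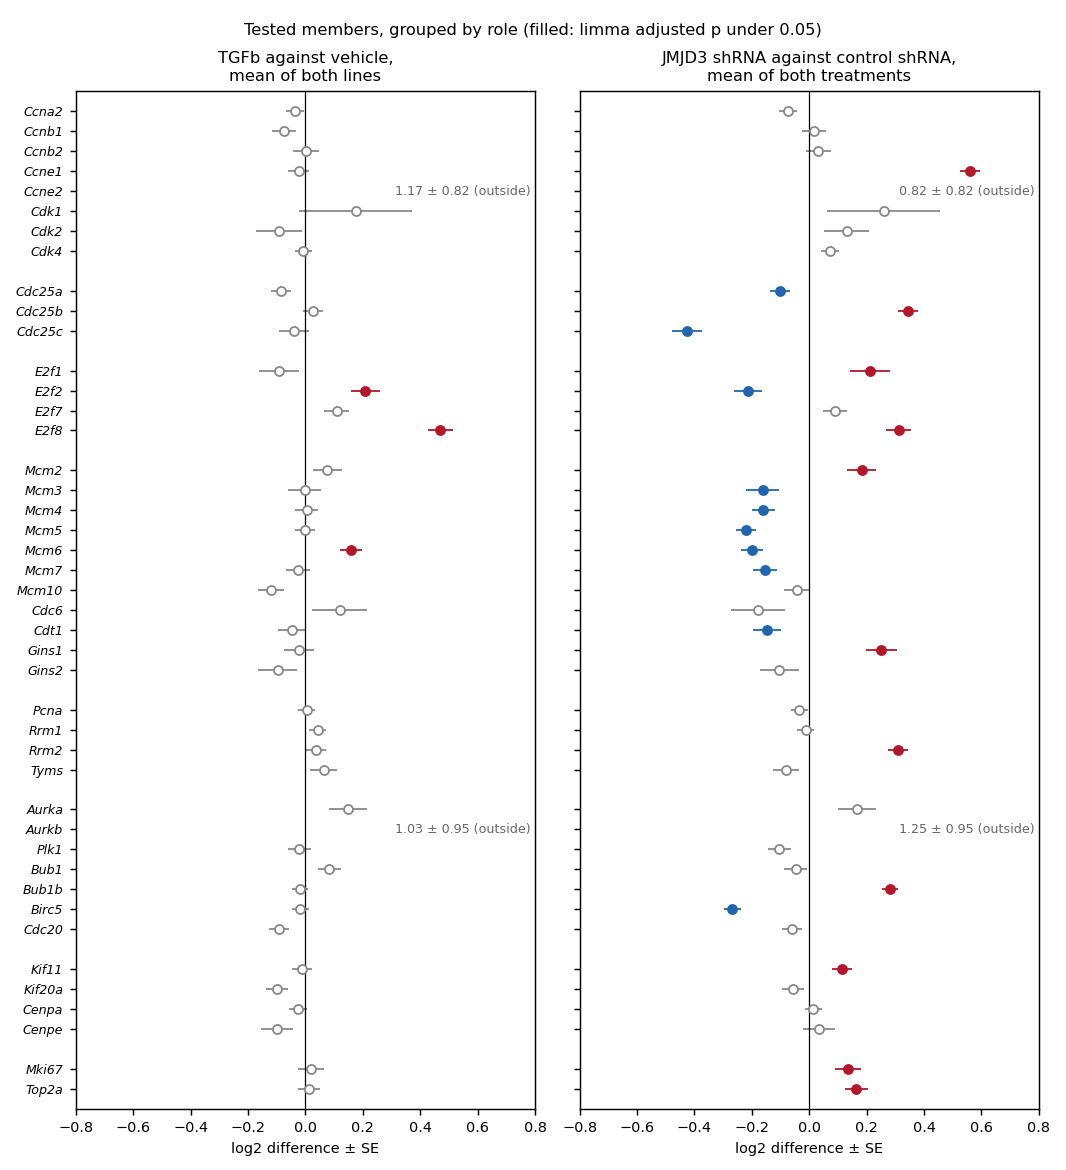
Log2 difference ± SE of the 43 tested members, grouped by role from cyclins at the top to proliferation markers at the bottom, for TGFb against vehicle (left, mean of both lines) and for JMJD3 shRNA against control shRNA (right, mean of both treatments). Filled points passed the limma test (red higher, blue lower): 3 with TGFb and 21 with the knockdown, while Ccne2 and Aurkb lie outside the axis and are printed as values.

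The clearest response to TGFb among the members was that of E2f8, an atypical E2F that represses E2F target genes late in S phase. In control cells its level was 1.38, 1.41 and 1.22 with vehicle and 1.76, 1.84 and 1.87 with TGFb. In knockdown cells E2f8 was 1.69, 1.64 and 1.66 with vehicle and 2.00, 2.16 and 2.18 with TGFb. In both lines the 3 TGFb arrays lay above the 3 vehicle arrays, and under both treatments the knockdown arrays lay above the control arrays, so that the 4 groups followed each other without overlap. TGFb raised E2f8 by 0.49 ± 0.06 in control cells (limma adjusted p = 0.00024) and by 0.45 ± 0.06 in knockdown cells (adjusted p = 0.000514). Within single slides, with 1 array on each side, the TGFb difference was 0.35 and 0.62 for the control line and 0.34 for the knockdown line. The knockdown raised E2f8 by 0.31 ± 0.04 over both treatments (adjusted p = 0.000145), which is 1.24-fold. With slide as a block these values were 0.43 for TGFb over both lines and 0.30 for the knockdown. The E2f8 probe lies on the minus strand at chr7:56121860-56121919 (mm9, the build of the file headers).

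E2f2, an activating E2F, moved in opposite directions with the 2 factors. Its level was 1.47, 1.63 and 1.43 in control cells with vehicle and 1.78, 1.71 and 1.81 with TGFb. In knockdown cells E2f2 was 1.23, 1.45 and 1.36 with vehicle and 1.60, 1.48 and 1.43 with TGFb. The control arrays did not overlap between treatments, whereas the knockdown arrays did. Over both lines TGFb raised E2f2 by 0.21 ± 0.05 (limma adjusted p = 0.0137), and the knockdown lowered it by a difference of -0.21 ± 0.05 (adjusted p = 0.00513). The TGFb call was lost when arrays were scaled to their median (adjusted p = 0.102). The TGFb call in control cells alone (0.26 ± 0.07, adjusted p = 0.0419) was lost when any single array other than control vehicle replicate 2, knockdown vehicle replicates 1 and 2 and knockdown TGFb replicate 1 was left out (adjusted p from 0.0523 to 0.173).

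E2f1, the founding activating E2F, stood at 1.08, 1.37 and 1.17 in control cells with vehicle and 1.28, 0.99 and 0.98 with TGFb. In knockdown cells E2f1 stood at 1.23, 1.44 and 1.48 with vehicle and 1.37, 1.28 and 1.32 with TGFb. Groups overlapped under vehicle and not under TGFb. The knockdown raised it by 0.21 ± 0.07 over both treatments (limma adjusted p = 0.0295), and the call was lost without any 1 of 8 of the 12 arrays (all but control vehicle 2, control TGFb 1, knockdown vehicle 1 and knockdown TGFb 2), with adjusted p up to 0.0732. E2f7, the other atypical E2F, passed in 0 comparisons (0.11 ± 0.04 with TGFb, adjusted p = 0.127), and its 2 probes differed in sign there (0.11 and -0.07). E2f1 did not pass with TGFb either (-0.09 ± 0.07, adjusted p = 0.48).

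Of the knockdown changes that passed, the widest was that of Ccne1, cyclin E1, which drives Cdk2 at the entry into S phase. Its level was 2.98, 3.17 and 3.00 in control cells with vehicle and 3.09, 3.00 and 3.11 with TGFb. In knockdown cells Ccne1 was 3.66, 3.66 and 3.64 with vehicle and 3.60, 3.56 and 3.59 with TGFb. The 6 knockdown arrays lay above the 6 control arrays with a gap wider than the spread of either line. The difference was 0.60 ± 0.05 with vehicle (limma adjusted p = 6.92e-06, 1.52-fold) and 0.52 ± 0.05 with TGFb (adjusted p = 2.32e-05). Within single slides it ran from 0.47 to 0.69. A further Ccne1 probe gave 0.62 over both treatments, beside 0.56 for the probe used. TGFb gave a Ccne1 difference of -0.02 ± 0.04 over both lines (adjusted p = 0.745).

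In the fit without slide, none of the other cyclins and cyclin-dependent kinases passed for the knockdown over both treatments. Cdk4 did with slide as a block. Ccnb1, the mitotic cyclin B1, stood at 4.02, 3.88 and 3.95 in control cells with vehicle and 3.90, 4.02 and 3.82 with TGFb. In knockdown cells Ccnb1 lay between 3.99 and 4.01 with vehicle and stood at 3.82, 3.90 and 3.95 with TGFb, so that the lines overlapped under both treatments. Its knockdown difference over both treatments was 0.02 ± 0.04 (limma adjusted p = 0.808), and that of Ccnb2 was 0.03 ± 0.04 (adjusted p = 0.641). Ccna2, the S-phase and G2 cyclin A2, was lower in knockdown cells with TGFb (-0.13 ± 0.04, adjusted p = 0.0489), a call lost when any 1 of 10 of the 12 arrays was left out (all but control TGFb 3 and knockdown TGFb 2, adjusted p from 0.0572 to 0.157). Cdk2, the partner of cyclin E, had a knockdown difference of 0.13 ± 0.08 (adjusted p = 0.233) and Cdk4, the partner of the D cyclins, one of 0.07 ± 0.03 (adjusted p = 0.088).

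The 3 Cdc25 phosphatases, which remove inhibitory phosphate from CDKs, changed in both directions. Cdc25c, which acts at the entry into mitosis, stood at 0.0014, 0.07 and 0.11 in control cells with vehicle and 0.19, 0.20 and -0.03 with TGFb. In knockdown cells Cdc25c stood at -0.26, -0.23 and -0.30 with vehicle and -0.29, -0.52 and -0.40 with TGFb. All knockdown arrays lay below all control arrays, with a difference of -0.43 ± 0.05 over both treatments (limma adjusted p = 4.94e-05) and values from -0.26 to -0.49 within single slides.

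Cdc25b, which acts in G2 and is needed for neuron production in the embryonic neural tube, went the other way. Its level ran from 0.58 to 0.72 on the 6 control arrays, as 0.60, 0.58 and 0.72 with vehicle and 0.68, 0.66 and 0.64 with TGFb. In knockdown cells Cdc25b was 0.91, 0.98 and 1.05 with vehicle and 1.02, 0.98 and 1.00 with TGFb. No knockdown array overlapped a control array, and the difference was 0.35 ± 0.03 (limma adjusted p = 1.09e-05, 1.27-fold). Cdc25a, which acts at G1/S, passed with a small fall (-0.10 ± 0.03, adjusted p = 0.0366) that was lost without any 1 of 7 of the 12 arrays (all but control vehicle 1, control TGFb 3, knockdown vehicle 2 and 3 and knockdown TGFb 1; adjusted p from 0.0644 to 0.0874).

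**Figure D2:**
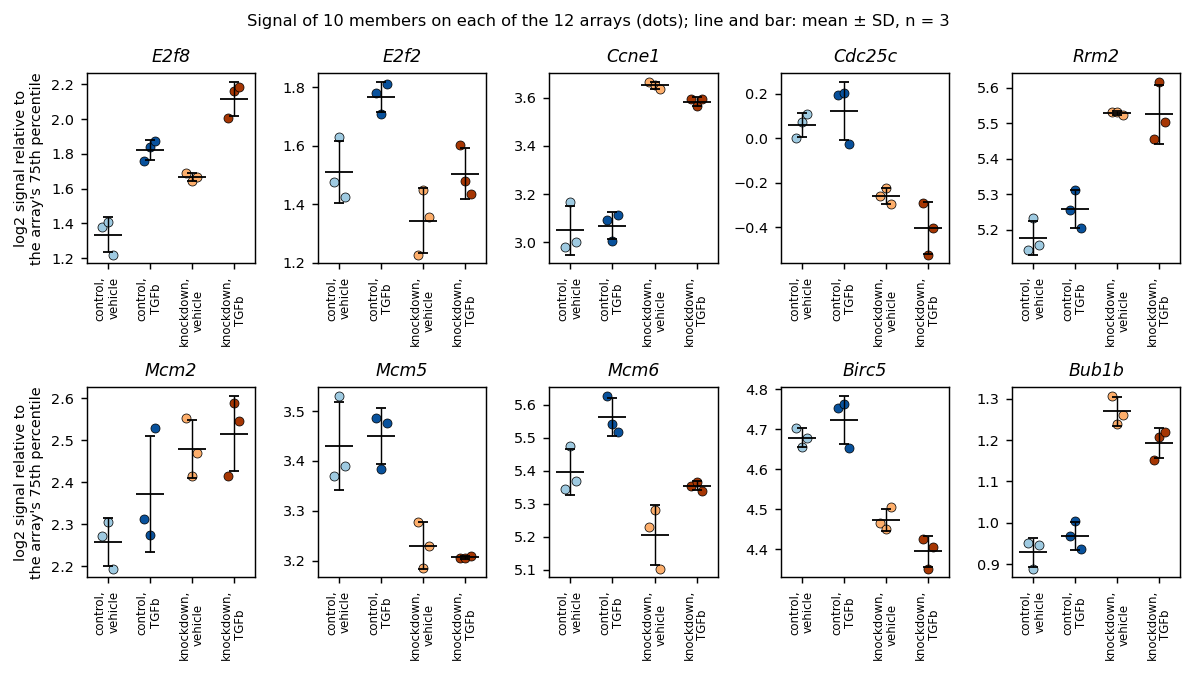
Signal of 10 members, as log2 relative to the 75th percentile of the array, on each array (dots) in the 4 groups, with mean ± SD (n = 3) as line and bar; each panel has its own axis. E2f8 is higher with TGFb in each line. Ccne1, Rrm2 and Bub1b sit higher and Cdc25c, Mcm5 and Birc5 lower on all 6 knockdown arrays. In knockdown against control cells the mean of Mcm2 is higher, and those of Mcm5 and Mcm6 are lower, under each treatment.

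The members that license origins and unwind DNA split in the knockdown. Mcm2 to Mcm7 form 1 ring-shaped helicase with 1 copy of each subunit, and yet Mcm2 rose while Mcm3, Mcm4, Mcm5, Mcm6 and Mcm7 fell. The directions were the same under each scaling and normalization tried. Mcm2 stood at 2.27, 2.30 and 2.19 in control cells with vehicle and 2.31, 2.27 and 2.53 with TGFb. In knockdown cells Mcm2 stood at 2.55, 2.41 and 2.47 with vehicle and 2.42, 2.59 and 2.55 with TGFb. No knockdown array overlapped a control array with vehicle, but with TGFb control replicate 3 lay among the knockdown arrays. The Mcm2 difference was 0.18 ± 0.05 over both treatments (limma adjusted p = 0.013), 0.15 with slide as a block, and between 0.04 and 0.28 within single slides.

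Mcm5 showed the clearest fall of the ring. Its level was 3.37, 3.53 and 3.39 in control cells with vehicle and 3.49, 3.38 and 3.48 with TGFb. In knockdown cells Mcm5 was 3.28, 3.18 and 3.23 with vehicle and 3.21, 3.20 and 3.21 with TGFb. All 6 knockdown arrays lay below all 6 control arrays, and the difference was -0.22 ± 0.04 (limma adjusted p = 0.000367), with -0.09 to -0.35 within single slides.

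Mcm6 was the one helicase subunit that passed for both factors. It stood at 5.34, 5.47 and 5.37 in control cells with vehicle and 5.63, 5.54 and 5.52 with TGFb. In knockdown cells Mcm6 stood at 5.23, 5.28 and 5.10 with vehicle and 5.35, 5.37 and 5.34 with TGFb. In each line the TGFb arrays lay above the vehicle arrays, and under each treatment the knockdown arrays lay below the control arrays. TGFb raised it by 0.16 ± 0.04 over both lines (limma adjusted p = 0.0147) and the knockdown gave a difference of -0.20 ± 0.04 (adjusted p = 0.00141). The TGFb call was lost with normexp background correction, median scaling and the authors' processed values (adjusted p from 0.0678 to 0.108), and the knockdown call with the authors' values (adjusted p = 0.0947).

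The remaining subunits moved by smaller amounts. Mcm4 stood at 4.72, 4.91 and 4.80 in control cells with vehicle and 4.86, 4.84 and 4.85 with TGFb. In knockdown cells Mcm4 stood at 4.61, 4.74 and 4.70 with vehicle and 4.66, 4.72 and 4.59 with TGFb. Its groups overlapped under vehicle and did not under TGFb, and the difference over both treatments was -0.16 ± 0.04 (limma adjusted p = 0.00711). Mcm7 stood at 4.37, 4.58 and 4.45 in control cells with vehicle and 4.56, 4.46 and 4.49 with TGFb. In knockdown cells Mcm7 stood at 4.31, 4.43 and 4.38 with vehicle and 4.36, 4.26 and 4.25 with TGFb. Again only the TGFb groups were apart, and the difference was -0.15 ± 0.04 (adjusted p = 0.0118). Mcm3 passed narrowly (-0.16 ± 0.06, adjusted p = 0.0406), a call lost without any 1 of 8 of the 12 arrays (all but control vehicle 3, control TGFb 2, knockdown vehicle 1 and knockdown TGFb 2; adjusted p from 0.0544 to 0.095). With the authors' processed values the falls of Mcm3, Mcm4 and Mcm7 were lost as well (adjusted p = 0.479, 0.323 and 0.321), while that of Mcm5 was kept.

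Of the factors that load or activate the ring, Gins1, a subunit of the GINS complex, rose with the knockdown. Its level was 1.15, 1.46 and 1.39 in control cells with vehicle and 1.39, 1.35 and 1.24 with TGFb. In knockdown cells Gins1 was 1.58, 1.54 and 1.66 with vehicle and 1.53, 1.56 and 1.60 with TGFb. No knockdown array overlapped a control array (0.25 ± 0.05, limma adjusted p = 0.00249), while its partner Gins2 had a difference of -0.10 ± 0.07 (adjusted p = 0.275). Cdt1, the licensing factor that brings Mcm rings to origins, was lower (-0.15 ± 0.05, adjusted p = 0.0322), a call lost without any 1 of 6 of the 12 arrays (control vehicle 1 and 2, control TGFb 3, knockdown vehicle 2 and 3 and knockdown TGFb 1; adjusted p from 0.0527 to 0.0782). Cdc6, the other loading factor, stood at -0.82, -0.81 and -1.05 in control cells with vehicle and -0.88, -0.99 and -0.50 with TGFb. In knockdown cells Cdc6 stood at -0.87, -1.28 and -1.13 with vehicle and -1.08, -0.87 and -0.92 with TGFb, with overlap throughout (-0.18 ± 0.09, adjusted p = 0.168). Mcm10 gave -0.04 ± 0.04 (adjusted p = 0.518), and Cdc45, named through its accession, -0.10 ± 0.06 (adjusted p = 0.274).

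The promoters of 4 of these genes are shown because Mcm5 and Mcm6 fell while Mcm2 and E2f8 rose with the knockdown. They are the 250 bases before the start site, 5′ to 3′ on the gene's strand, from RefSeq (GRCm38.p6), with E2F letters in capitals. Mcm5 is at chr8:75109259-75109508 (plus strand), Mcm6 at chr1:128359706-128359955, Mcm2 at chr6:88898781-88899030 and E2f8 at chr7:48881597-48881846 (minus strand).
Mcm5: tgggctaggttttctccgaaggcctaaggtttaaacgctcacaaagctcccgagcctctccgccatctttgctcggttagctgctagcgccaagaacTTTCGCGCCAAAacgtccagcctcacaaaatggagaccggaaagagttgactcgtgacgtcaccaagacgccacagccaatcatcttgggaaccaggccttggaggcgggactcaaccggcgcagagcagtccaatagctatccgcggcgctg
Mcm6: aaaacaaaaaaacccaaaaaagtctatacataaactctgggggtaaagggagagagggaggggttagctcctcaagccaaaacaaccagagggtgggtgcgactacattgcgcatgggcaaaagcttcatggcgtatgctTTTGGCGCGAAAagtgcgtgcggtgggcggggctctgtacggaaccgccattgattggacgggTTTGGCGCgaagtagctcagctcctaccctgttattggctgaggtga
Mcm2: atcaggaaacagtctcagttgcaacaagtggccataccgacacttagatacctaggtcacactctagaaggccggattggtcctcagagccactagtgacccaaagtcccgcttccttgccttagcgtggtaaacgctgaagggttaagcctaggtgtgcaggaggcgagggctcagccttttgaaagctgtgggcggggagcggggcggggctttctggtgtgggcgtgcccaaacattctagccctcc
E2f8: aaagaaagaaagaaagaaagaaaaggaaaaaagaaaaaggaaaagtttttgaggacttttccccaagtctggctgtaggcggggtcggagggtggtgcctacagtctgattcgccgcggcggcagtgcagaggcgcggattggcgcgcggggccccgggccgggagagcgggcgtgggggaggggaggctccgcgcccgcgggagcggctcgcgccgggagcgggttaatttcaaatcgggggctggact
The letters searched were TTTCCCGC, TTTGGCGC, TTTGCCGC and TTTCGCGC for E2F, on both strands. In Mcm5 and in the first capital run of Mcm6 a match on the plus strand overlaps one on the minus strand, and Mcm6 holds a further match. Mcm2 and E2f8 hold none of these exact letters in the window, which says nothing of other letters that E2F may bind.

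The same letters were then counted in the promoters of all members. RefSeq gave 300-base windows, from 250 bases before to 50 after the start, for 37 of the 45 genes (39 windows). The E2F letters were in 9 of 21 windows of G1/S members (42.9%), in 1 of 15 of G2/M members (6.67%) and in 2.26% of all 32851 windows. The CHR letters TTTGAA and TTCGAA, the cell cycle homology element of mitotic genes, were in 80.0% of G2/M windows, 23.8% of G1/S windows and 19.2% of all windows. The NF-Y letters CCAAT were in 93.3% and 76.2%, beside 37.4% of all windows. A match is a description of these letters and not of a bound site.

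**Figure D3:**
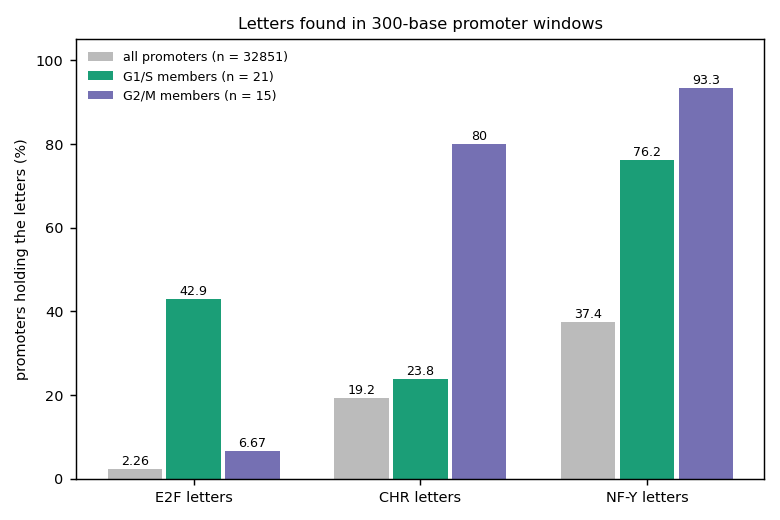
Share of 300-base promoter windows (RefSeq, GRCm38.p6) that hold the E2F, CHR or NF-Y letters on either strand, for all windows, G1/S members and G2/M members; n is the number of windows and no test was made. E2F letters are at 42.9% in G1/S members and 6.67% in G2/M members, and CHR letters at 23.8% and 80.0%.

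By phase, the knockdown raised 6 and lowered 8 of the 22 G1/S members tested, and raised 5 and lowered 2 of the 19 G2/M members, beside 16.6% of all genes higher and 23.2% lower. With TGFb, 3 of 22 G1/S members and 0 of 19 G2/M members passed the limma test, beside 15.7% of all genes. Of the 10 members that the knockdown lowered, 8 have a window, and 7 of these hold E2F letters in at least 1 window: Mcm3, Mcm5, Mcm6, Mcm7, Cdt1, Cdc25a and E2f2. Of the 11 that it raised, 10 have a window and 0 hold these letters, among them the G1/S genes Ccne1, E2f1, E2f8, Mcm2 and Rrm2. Of the 22 members not called, 17 have a window and 4 hold them (Cdc6, Cdk1, Cdk2 and E2f7). This reading by response was made after the changes were known, and carries no test.

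In nucleotide supply the knockdown raised Rrm2, the S-phase subunit of ribonucleotide reductase, alone. Its level was 5.14, 5.23 and 5.16 in control cells with vehicle and 5.25, 5.31 and 5.21 with TGFb. In knockdown cells Rrm2 was 5.53, 5.53 and 5.52 with vehicle and 5.46, 5.62 and 5.50 with TGFb. The lines did not overlap, and the difference was 0.31 ± 0.03 (limma adjusted p = 2.6e-05, 1.24-fold), with 0.14 to 0.39 within single slides. Its partner subunit Rrm1 gave -0.01 ± 0.03 (adjusted p = 0.796), and the thymidylate synthase Tyms gave -0.08 ± 0.05 (adjusted p = 0.194). Pcna, the sliding clamp, stood at 5.05, 5.04 and 4.99 in control cells with vehicle and 4.97, 4.98 and 5.04 with TGFb. In knockdown cells Pcna stood at 4.99, 4.92 and 4.95 with vehicle and 4.94, 5.05 and 4.99 with TGFb (-0.04 ± 0.03, adjusted p = 0.395).

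Among the mitotic kinases and checkpoint genes 1 rose and 1 fell with the knockdown. Bub1b, which encodes the spindle checkpoint protein BubR1, stood at 0.95, 0.89 and 0.95 in control cells with vehicle and 0.97, 1.00 and 0.94 with TGFb. In knockdown cells Bub1b stood at 1.31, 1.24 and 1.26 with vehicle and 1.15, 1.21 and 1.22 with TGFb. The lines did not overlap (0.28 ± 0.03, limma adjusted p = 1.07e-05). Its paralog Bub1 had a difference of -0.05 ± 0.04 (adjusted p = 0.413).

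Birc5, survivin, a subunit of the chromosomal passenger complex with Aurkb, went down. It stood at 4.70, 4.66 and 4.68 in control cells with vehicle and 4.75, 4.76 and 4.65 with TGFb. In knockdown cells Birc5 stood at 4.47, 4.45 and 4.50 with vehicle and 4.43, 4.35 and 4.41 with TGFb. The lines did not overlap, the difference was -0.27 ± 0.03 (limma adjusted p = 2.14e-05), and further Birc5 probes gave -0.21 and -0.12. The call under TGFb alone was lost when all 3 probes were averaged (-0.18, adjusted p = 0.0854). Aurka (0.17 ± 0.07, adjusted p = 0.0687), Plk1 (-0.10 ± 0.04, adjusted p = 0.0651) and Cdc20 (-0.06 ± 0.04, adjusted p = 0.223), a kinase pair of mitotic entry and the activator of the anaphase-promoting complex, did not pass. Aurka and Plk1 did with slide as a block.

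The spindle motor Kif11 rose narrowly (0.11 ± 0.03, limma adjusted p = 0.0196), a call lost without knockdown vehicle replicate 3 (0.10, adjusted p = 0.0537). The motor Kif20a and the centromere genes Cenpa and Cenpe did not pass (-0.06, 0.01 and 0.03). TGFb gave all 4 of these genes values below 0, from -0.01 to -0.10, and 0 of them passed.

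The proliferation markers Mki67 and Top2a rose slightly in knockdown cells. Top2a, the topoisomerase of S phase to mitosis, stood at 2.59, 2.79 and 2.76 in control cells with vehicle and 2.79, 2.74 and 2.71 with TGFb. In knockdown cells Top2a stood at 2.88, 2.84 and 2.98 with vehicle and 2.86, 2.91 and 2.89 with TGFb. The lines did not overlap (0.16 ± 0.04, limma adjusted p = 0.00604), and the call was lost when arrays were scaled to their median (adjusted p = 0.0771). Mki67, the gene of the Ki-67 antigen, stood at 4.19, 4.16 and 4.32 in control cells with vehicle and 4.26, 4.31 and 4.26 with TGFb. In knockdown cells Mki67 stood at 4.26, 4.43 and 4.48 with vehicle and 4.34, 4.47 and 4.34 with TGFb, with overlap under vehicle. Its difference of 0.13 ± 0.05 (adjusted p = 0.036) was lost without any 1 of 8 of the 12 arrays (all but control vehicle 3, knockdown vehicle 1 and knockdown TGFb 1 and 3; adjusted p from 0.05 to 0.09), and was 0.10 (adjusted p = 0.141) when its 2 probes were averaged. With TGFb the values were 0.01 ± 0.04 for Top2a and 0.02 ± 0.05 for Mki67, and neither passed.

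The response to TGFb was then compared between the lines. The limma test of the difference called 0 of 43 members, where 0.087% of all genes passed. At an unadjusted p under 0.05 it had 0 members, and the share of all genes there is not given. The smallest adjusted p was 0.964. The difference, as knockdown minus control response, was -0.04 ± 0.09 for E2f8 and -0.10 ± 0.10 for E2f2, and the median SE over all genes was 0.14. A test that misses the threshold does not show that the lines responded alike.

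For Aurkb, Ccne2 and Cdk1, the slide on which an array lay separated the values more than the group did. Aurkb, the kinase of the chromosomal passenger complex, stood at -5.45 in control vehicle replicate 1, -4.83 in knockdown vehicle replicate 1, -5.05 in control TGFb replicate 3 and -3.68 and -3.94 in knockdown TGFb replicates 2 and 3. These are the 5 arrays of slides 1 and 4. On the 7 arrays of slides 2 and 3, which hold all 4 groups, Aurkb lay between -8.97 and -7.00. The log2 difference, taken within each group and averaged over the 4 groups, came to 9.31-fold. Slide differences below were taken in the same way. Ccne2, cyclin E2, lay between -6.02 and -4.76 on slides 1 and 4 and between -8.90 and -7.70 on slides 2 and 3 (7.37-fold), and was well above background on 7 arrays only. This division of slides was chosen after the values were seen. With SE of 0.95 and 0.82 for the knockdown difference, neither Aurkb (adjusted p = 0.349) nor Ccne2 (adjusted p = 0.49) passed, and a change of several-fold in either could not be detected.

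Cdk1, the mitotic kinase, had 3 probes, and 2 of them showed the same division. Probe 1, the one used, stood at 1.91, 1.31 and 1.44 in control cells with vehicle and 1.29, 1.41 and 2.06 with TGFb. In knockdown cells Cdk1 stood at 2.12, 1.17 and 1.72 with vehicle and 1.56, 2.25 and 2.16 with TGFb. Again the 5 arrays of slides 1 and 4 lay above the other 7. The difference within groups, averaged as above, was 1.56-fold. That of probe 2, whose target overlaps that of probe 1, was 8.30-fold. Probe 3 did not separate the slides (-4.19 to -3.83 against -4.00 to -3.76). The knockdown difference of Cdk1 over both treatments was 0.26 ± 0.20 with probe 1 (adjusted p = 0.35), 1.01 with probe 2 and -0.10 with probe 3, so that its sign depends on the probe. With slide as a block probe 1 gave 0.11 (adjusted p = 0.136).

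The first 30 of the 60 bases of these probes are shown, with G and C in capitals, beside those of E2f8 and Ccne1, because the 4 probes that were higher on slides 1 and 4 hold few G and C. In mm9 the Cdk1 probes lie at chr10:68801072-68801131, chr10:68801053-68801112 and chr10:68799513-68799572 (minus strand), Ccne2 at chr4:11131423-11131482 and Aurkb at chr11:68865105-68865164 (plus strand).
Cdk1, probe 1: ttCttaatttCCtaCGtataaCttaattaa
Cdk1, probe 2: aaCttaattaaCatGtaaatattattCCat
Cdk1, probe 3: ataCaCtaaaaatttGGGtaGCCaGGaGGt
Ccne2: ttataaaCtattGttaaGatatGaaGtttt
Aurkb: ttCaGaaaaattatGaaGaaCaaCatttta
E2f8: tGttGCaGtCtGtCtttttGtaGaGtttaC
Ccne1: GCatGtCCtGCCttCatGaaCtCttatttt
Over their 60 bases these 4 probes hold 11, 11, 9 and 12 G or C, and Cdk1 probe 3 holds 27. The median over the 56 member probes was 25. These 4 were the members' only probes with under 18 G or C. The Gins2 probe, with 31, was also divided, the other way: it lay between 1.80 and 1.97 on slides 1 and 4 and between 2.00 and 2.26 on slides 2 and 3 (1.15-fold). Among all 29972 kept probes, the log2 difference of slides 1 and 4 over slides 2 and 3 was taken within groups as above. Its median was 0.72 for the 121 probes with up to 14 G or C and 0.28 for those with 15 to 17. For each bin with more it lay between -0.11 and 0.13. A difference of at least 1 was found in 47 of the 121 probes (38.8%) and in 322 of all (1.07%). Most of these 322 thus held more than 14 G or C. Their median was 22, beside 26 over all kept probes. What set the slides apart was not tested.

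**Figure D4:**
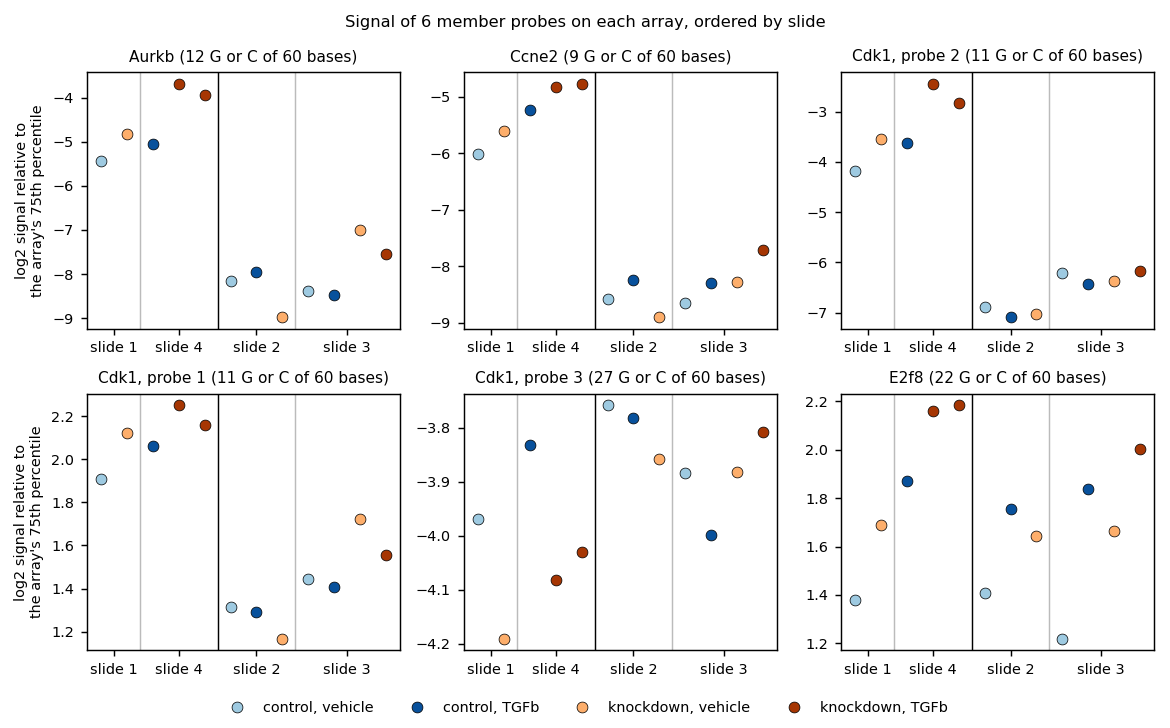
Signal of 6 member probes, as log2 relative to the 75th percentile of the array, on each of the 12 arrays, ordered by slide and coloured by group; the black line parts slides 1 and 4 from slides 2 and 3. Aurkb, Ccne2 and Cdk1 probes 1 and 2 lie higher on slides 1 and 4 in every group, while Cdk1 probe 3 and E2f8, with more G and C, do not part by slide.

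**Figure D5:**
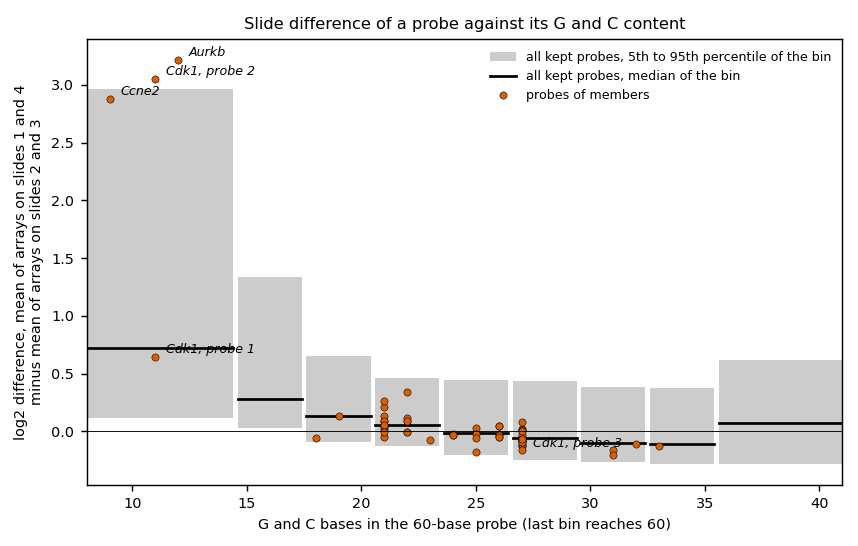
Log2 difference of slides 1 and 4 (5 arrays) over slides 2 and 3 (7 arrays) for each probe, against its number of G and C bases. Means of arrays were subtracted within each group, and the differences were averaged over the 4 groups. Grey boxes span the 5th to 95th percentile of all kept probes in a bin, black lines are medians and orange dots are the 56 member probes. Aurkb, Ccne2 and Cdk1 probe 2 lie at 3.22, 2.88 and 3.05, and member probes with 18 or more G or C lie closer to 0.

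Other genes of the same machinery were read from lists, as counts. Of 26 G1 regulators and CDK inhibitors, TGFb over both lines raised 1 and lowered 7 (8 of 26, beside 15.7% of all genes). Myc fell by 1.62 on the log2 scale, Cdkn2b, the CDK inhibitor p15, by 0.49, and Ccnd1, cyclin D1, by 0.33, while Mycn rose by 0.67 (limma adjusted p from 7.14e-09 to 6.66e-05). The knockdown raised 5 and lowered 7 of them (16.6% of all genes were higher and 23.2% lower), with Ccnd1 (-0.84 ± 0.04, adjusted p = 2.14e-08), E2f6, a repressor E2F (-0.43 ± 0.03), and Ccnd2 (-0.35 ± 0.04) lower and Lin52, of the DREAM repressor complex (0.30 ± 0.04), higher.

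Of 45 replication factors outside the member list, the knockdown raised 2 and lowered 18, beside 16.6% of all genes higher and 23.2% lower, with a median of -0.09. The clamp loader Rfc1 (-0.58 ± 0.03), the fork protection gene Timeless (-0.46 ± 0.03), Wdhd1 (-0.45 ± 0.05) and the origin recognition gene Orc1 (-0.40 ± 0.06) were among those that fell. TGFb raised 1 (Dna2) and lowered 1 (Timeless), where over both lines 7.18% of all genes were higher and 8.52% lower. Of 61 mitotic factors outside the member list, the knockdown raised 13, such as Nuf2 (0.23 ± 0.03), and lowered 9, such as Cenph (-0.33 ± 0.04). Among these factors TGFb raised 2 and lowered 7, one being Ndc80 (-0.21 ± 0.03), beside the same TGFb shares of all genes. Of 14 DNA damage checkpoint genes the knockdown raised 4, with Atm highest among them (0.41 ± 0.06), and lowered 2, of which Trp53 gave -0.15 ± 0.04. The adjusted p of each gene named here was 0.0231 or lower.

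Markers of other cell types moved with the knockdown beside these counts, where 16.6% of all genes were higher and 23.2% lower. Of 8 neuron markers tested 4 rose, among them Elavl3 (1.34 ± 0.05), Syt1 (1.16 ± 0.11) and Dcx (1.02 ± 0.15), and 2 fell, Rbfox3 (-1.28 ± 0.07) and Gad1 (-0.53 ± 0.06). Their summed signal, in which bright probes weigh most, ran from 13.3 to 15.1 in control cells with vehicle and 12.46 to 13.05 with TGFb. In knockdown cells this sum ran from 14.7 to 15.6 with vehicle and 13.8 to 15.3 with TGFb. Of 7 astrocyte markers Slc1a3 (0.70 ± 0.03), which radial glia also express, and Gfap (0.74 ± 0.07) rose and 1 fell. Of 10 neural stem cell markers 3 rose, with Sox2 at 0.65 ± 0.03, and 2 fell, Sox1 and Nes. Among the oligodendrocyte markers Mbp (0.65 ± 0.20) rose and Olig1 (-0.11 ± 0.03) fell. Mbp was faint: no probe of it averaged above -7.47 or was well above background on more than 11 of 12 arrays. Of 6 microglia markers P2ry12 (1.01 ± 0.07) rose, of 5 fibroblast and meningeal markers 2 rose and Col1a1 (-0.40 ± 0.08) fell, and of 4 endothelial markers 0 passed. Other markers named here were also low, among them Dcx, Col1a1 and P2ry12, with mean levels of -6.555, -5.563 and -4.616.

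TGFb over both lines moved other markers, where 15.7% of all genes passed. Of 8 oligodendrocyte markers 2 fell, Olig2 (-0.68 ± 0.04) and Olig1 (-0.13 ± 0.03), and 0 rose. Their summed signal ran from 48.0 to 51.6 in control cells with vehicle and 38.9 to 39.7 with TGFb, and from 43.1 to 45.2 in knockdown cells with vehicle and 37.1 to 40.6 with TGFb. The TGFb arrays thus lay below the vehicle arrays in each line, but Olig1 and Olig2, at mean levels of 4.9 and 3.4, carry most of this sum. The median deviation of the markers from their own means overlapped between treatments. It ran from -0.20 to 0.16 in control cells with vehicle and -0.35 to 0.05 with TGFb. In knockdown cells it ran from 0.04 to 0.22 with vehicle and -0.15 to 0.07 with TGFb. Of the 7 astrocyte markers Gfap (0.69 ± 0.07) and S100b (0.25 ± 0.07) rose, and of the 6 microglia markers Tmem119 (1.71 ± 0.26) did. Tmem119 was faint, at a mean level of -5.651. Col1a1 (1.19 ± 0.08) rose and Prrx1 (-0.35 ± 0.06) fell among the 5 fibroblast and meningeal markers, Gad1 (0.59 ± 0.06) rose and Elavl3 (-0.24 ± 0.05) fell among the neuron markers, and Sox1 rose and Sox2 fell among the neural stem cell markers. Of the 4 endothelial markers 0 passed. The part of all these markers in the members' changes was not tested.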

How the data were processed

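Expression was measured on Agilent mouse arrays of 1 colour, 1 for each of 12 samples. The deposited scanner files hold spot intensities, background-subtracted by Feature Extraction 10.7.3.1 per the file headers, with probe positions in mm9. The deposited series table holds the authors' processed log2 values, whose processing is not given in the sources used here; it served as an alternative. Here the log2 of each processed intensity was taken minus the log2 of the array's 75th percentile. A probe was kept when some group had it well above background on each of its 3 arrays, and the brightest kept probe stood for a gene. Symbols were updated through RefSeq accessions.

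Differences were fitted with limma 3.58.1 in R 4.3.3 over all 4 groups (lmFit, contrasts, eBayes with trend, 8 residual degrees of freedom), with Benjamini-Hochberg adjustment over 24149 genes and 7 comparisons each adjusted on its own. The fit was tested on simulated data. Members and lists were chosen with earlier results of these data known. Values per array are given for the up to 14 called members with the smallest adjusted p and for Mki67, Top2a, Pcna, Mcm2, Ccne1, Ccnb1, Cdk1, E2f1 and Cdc6, and genes of lists are named only where called, at most 5 per list and comparison. Aurkb and Ccne2, the printed sequences and the division of slides were chosen after their values were seen. The alternatives were normexp background correction, quantile and median scaling, the authors' values, the filter, slide and replicate blocks, array weights, no trend, averaging of probes, stricter thresholds and leaving out each array. Same-numbered vehicle arrays of the 2 lines shared a slide and deviated together (r from 0.25 to 0.58 across genes), so the numbers pair them, and that block was fitted on the vehicle arrays as an alternative chosen after seeing the data. In the other comparisons the numbers did not pair samples: over all groups 4 of 18 same-numbered pairs had r over 0.1.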

Additional observations from a re-analysis of the deposited data

How the results depend on the processing

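No called member changed sign under any alternative run, and Kdm6b was lower in knockdown cells throughout, by -1.20 to -1.09 with vehicle and -1.42 to -1.36 with TGFb. Of the 21 knockdown calls over both treatments, 11 were kept in all alternatives except the stricter thresholds: Ccne1, Cdc25b, Cdc25c, E2f2, E2f8, Mcm2, Mcm5, Gins1, Rrm2, Bub1b and Birc5. The number of members called was smaller with median scaling: 1 of 2 for TGFb in control cells, 5 of 13 and 8 of 14 for the knockdown with vehicle and with TGFb, 1 of 3 for TGFb over both lines and 13 of 21 for the knockdown over both treatments. For TGFb in control cells it was also 1 with normexp, the authors' values, no filter, no trend, only the groups compared or an adjusted p under 0.01. With slide as a block it was 5 for TGFb in control cells, 2 for TGFb in knockdown cells and, for the knockdown, 20 with vehicle, 17 with TGFb and 25 over both treatments. With pairs of slides as a block, an alternative chosen after seeing the data, it was 5, 2 and, for TGFb over both lines, 5. Array weights gave 5 for TGFb over both lines. An adjusted p under 0.01 left 7 and 8 for the knockdown with vehicle and with TGFb, 1 for TGFb over both lines and 13 for the knockdown over both treatments. A change of at least 1.5-fold left 1, Ccne1 in the knockdown with vehicle, and 0 in each other comparison. Calls over all genes moved as well with some of these settings, as from 6722 to 4343 with median scaling for the knockdown with vehicle. The shifts in member counts therefore do not set the members apart from other genes. The cause of these shifts was not tested. Leaving out 1 array gave 1 to 3 members for TGFb in control cells, 1 to 2 in knockdown cells and 3 to 4 over both lines, and 9 to 13, 9 to 14 and 16 to 20 for the knockdown with vehicle, with TGFb and over both treatments. In control cells 3 were called without control vehicle replicate 2 or knockdown vehicle replicate 1, and in knockdown cells 2 without control vehicle replicate 2. The lowest value for the knockdown with TGFb, 9, was without knockdown TGFb replicate 3. The difference of responses called 0 members in all 26 alternatives.

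With the replicate number as a block, 1 member was called for TGFb in control cells, 12 each for the knockdown with vehicle and with TGFb, 3 for TGFb over both lines and 17 for the knockdown over both treatments. Over all 4 groups the number is not the slide. In the vehicle groups alone, where it is, that block called 21 members for the knockdown with vehicle.

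Over all genes, the called number for TGFb in knockdown cells went from 2291 to 1470 with median scaling and 3623 with array weights, and for the knockdown with vehicle from 6722 to 4343 with median scaling. An adjusted p under 0.01 took the count from 2451 to 1571 for TGFb in control cells, to 1391 for TGFb in knockdown cells, and to 4359 and, from 6998, 4568 for the knockdown with vehicle and with TGFb. A change of at least 1.5-fold left 965, 824, 1674 and 1688 genes in those comparisons, 964 of 3792 for TGFb over both lines and 1679 of 9595 for the knockdown over both treatments. The difference of responses, with 21 genes called, ranged from 4 to 64. Outside the members, Rbl1 in the knockdown over both treatments and Sox1 in the knockdown with TGFb turned sign when kept probes were averaged, to -0.058 and 0.023. Probes whose values were divided by slide, as those of Aurkb and Ccne2 and the Cdk1 probe used, limit what these arrays resolve for their genes.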
